A study of Mus musculus with 12 samples.

Results

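The core genes of transforming growth factor beta (TGF-beta) signalling were examined in sorted glia of the mouse hippocampus. The 10 members were chosen by symbol, as genes listed for this pathway whose Ensembl identifiers stood in both deposited count tables, and they make up 10 of the 25442 identifiers that the tables share. They are the ligands Tgfb1, Tgfb2 and Tgfb3, the receptors Tgfbr1 and Tgfbr2, the receptor-activated SMADs Smad2 and Smad3, the common SMAD Smad4, and the inhibitors Smad7 and Smurf1. All mice were C57Bl6/J males that received an AAV2/9 vector in CA1 of both hemispheres at 2 months of age and were studied 2 months later, at 4 months. The vector carried the adenosine A2A receptor (A2AR, here AAV-A2A) or, in controls, GFP (AAV-GFP), in both cases behind GfaABC1D, a short promoter derived from the gene of the astrocytic protein GFAP, so the controls also carried a vector and no group was left uninjected. Whole hippocampi were dissociated, astrocytes were retained on magnetic beads against the surface antigen ACSA-2, and CD11b beads were then applied to the cells that ran through, which gave the microglia-enriched fraction. Each fraction has 3 AAV-GFP and 3 AAV-A2A libraries, named below by vector and label number, and the labels do not say whether the fractions came from the same mice. Injection was confined to CA1 whereas the whole hippocampus was sorted, so cells outside the injected field are included in every library.

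TGF-beta is secreted in a latent complex and has to be released from it before it can bind. The ligand brings together a type II receptor (TGFBR2) and a type I receptor (TGFBR1), which phosphorylates SMAD2 and SMAD3, and these enter the nucleus with SMAD4. SMAD7 competes for the receptor and recruits E3 ubiquitin ligases such as SMURF1, which mark receptors and SMADs for degradation. In the brain, TGF-beta1 is known as a signal that microglia need to keep their resident identity, and astrocytes are a known source of TGF-beta2.

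The results below turn on Tgfb1, Tgfb2, Tgfbr1, Tgfbr2 and Smurf1, whose levels moved in different ways across the libraries, and the 250 bases upstream of their RefSeq start (GRCm38.p6) are shown for that reason. They lie at chr7:25686752-25687001 (plus strand), chr1:186705990-186706239 (minus strand), chr4:47352972-47353221 (plus strand, the first of its starts), chr9:116175364-116175613 (minus strand) and chr5:144965831-144966080 (minus strand). Each is written 5′ to 3′ on the strand of the gene, and capitals mark the SMAD box, the short motif that SMAD3 and SMAD4 bind (CAGAC, or GTCTG on the other strand).
Tgfb1: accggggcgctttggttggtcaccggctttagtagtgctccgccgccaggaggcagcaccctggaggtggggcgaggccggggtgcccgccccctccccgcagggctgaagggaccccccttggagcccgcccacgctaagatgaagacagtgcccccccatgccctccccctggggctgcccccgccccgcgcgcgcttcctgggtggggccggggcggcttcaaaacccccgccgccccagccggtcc
Tgfb2: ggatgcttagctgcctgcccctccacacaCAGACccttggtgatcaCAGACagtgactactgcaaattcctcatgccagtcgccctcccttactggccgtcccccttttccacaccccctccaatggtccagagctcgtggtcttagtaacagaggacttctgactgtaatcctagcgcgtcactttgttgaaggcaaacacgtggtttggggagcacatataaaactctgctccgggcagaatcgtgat
Tgfbr1: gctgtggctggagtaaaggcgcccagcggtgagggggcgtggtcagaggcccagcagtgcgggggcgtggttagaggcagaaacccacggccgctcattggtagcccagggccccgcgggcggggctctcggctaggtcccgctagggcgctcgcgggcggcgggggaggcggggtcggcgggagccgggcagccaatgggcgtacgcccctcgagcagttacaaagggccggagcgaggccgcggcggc
Tgfbr2: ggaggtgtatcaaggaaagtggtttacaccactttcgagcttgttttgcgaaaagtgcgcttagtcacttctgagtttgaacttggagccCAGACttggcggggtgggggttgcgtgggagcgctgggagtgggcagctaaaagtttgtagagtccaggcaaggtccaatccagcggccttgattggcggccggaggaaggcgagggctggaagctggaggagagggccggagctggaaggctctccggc
Smurf1: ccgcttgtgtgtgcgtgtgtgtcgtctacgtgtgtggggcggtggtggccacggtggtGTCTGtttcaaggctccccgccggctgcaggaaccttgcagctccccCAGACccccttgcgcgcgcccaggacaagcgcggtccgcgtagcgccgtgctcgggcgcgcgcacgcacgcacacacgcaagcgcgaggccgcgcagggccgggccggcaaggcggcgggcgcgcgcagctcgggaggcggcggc
The SMAD box was found 2 times upstream of Tgfb2, 2 times upstream of Smurf1 and 1 time upstream of Tgfbr2, and 0 times upstream of Tgfb1 and Tgfbr1. It stood in 42.2% of the 32851 upstream windows of the same length in the table, so its presence is common. The GC box of SP1 (GGGCGG, both strands, which can overlap itself in part) occurred 5 times upstream of Tgfb1, 2 times upstream of Tgfbr1 and 1 time upstream of Smurf1, and in 32.7% of all windows. Of the windows shown, Tgfb2 and Tgfbr2 held 0 GC boxes. The full cyclic AMP response element (TGACGTCA) was in 0 of the 5 windows and in 1.55% of all windows. G and C made up 74.8 to 75.2% of the bases upstream of Tgfb1, Tgfbr1 and Smurf1, 58.4% for Tgfbr2 and 53.6% for Tgfb2, against a median of 52.4% over all windows. These matches describe letters only.

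Total counts on genes were 33937067 to 49217553 in ACSA-2 libraries and 36098295 to 53206974 in CD11b libraries. Levels are given as CPM, the read count relative to the library total on the usual CPM scale, after TMM scaling over all 12 libraries. Adora2a, the gene carried by the vector, was at 23.2 to 25.6 CPM in ACSA-2 controls and 655 to 927 CPM in AAV-A2A libraries, and at 3.77 to 8.30 against 15.0 to 45.2 CPM in CD11b. The 8 astrocyte markers summed to 22551 to 35616 CPM in ACSA-2 and 259 to 512 CPM in CD11b, and the 8 microglia markers to 221 to 399 CPM in ACSA-2 and 6629 to 55086 CPM in CD11b. The CD11b libraries stood apart by choroid plexus, the epithelium that makes cerebrospinal fluid. Its 7 markers, led by transthyretin (Ttr), summed to 73332 CPM in GFP-2328, 60884 in GFP-2329 and 29557 in A2A-2347, and to 98.8 in GFP-2331, 74.3 in A2A-2343 and 9.70 in A2A-2344. The first 3 are called choroid plexus-rich below and the other 3 choroid plexus-poor, a division made from the data and not by the labels, and ACSA-2 libraries held 576 to 1016 CPM of the same markers.

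**Figure D1:**
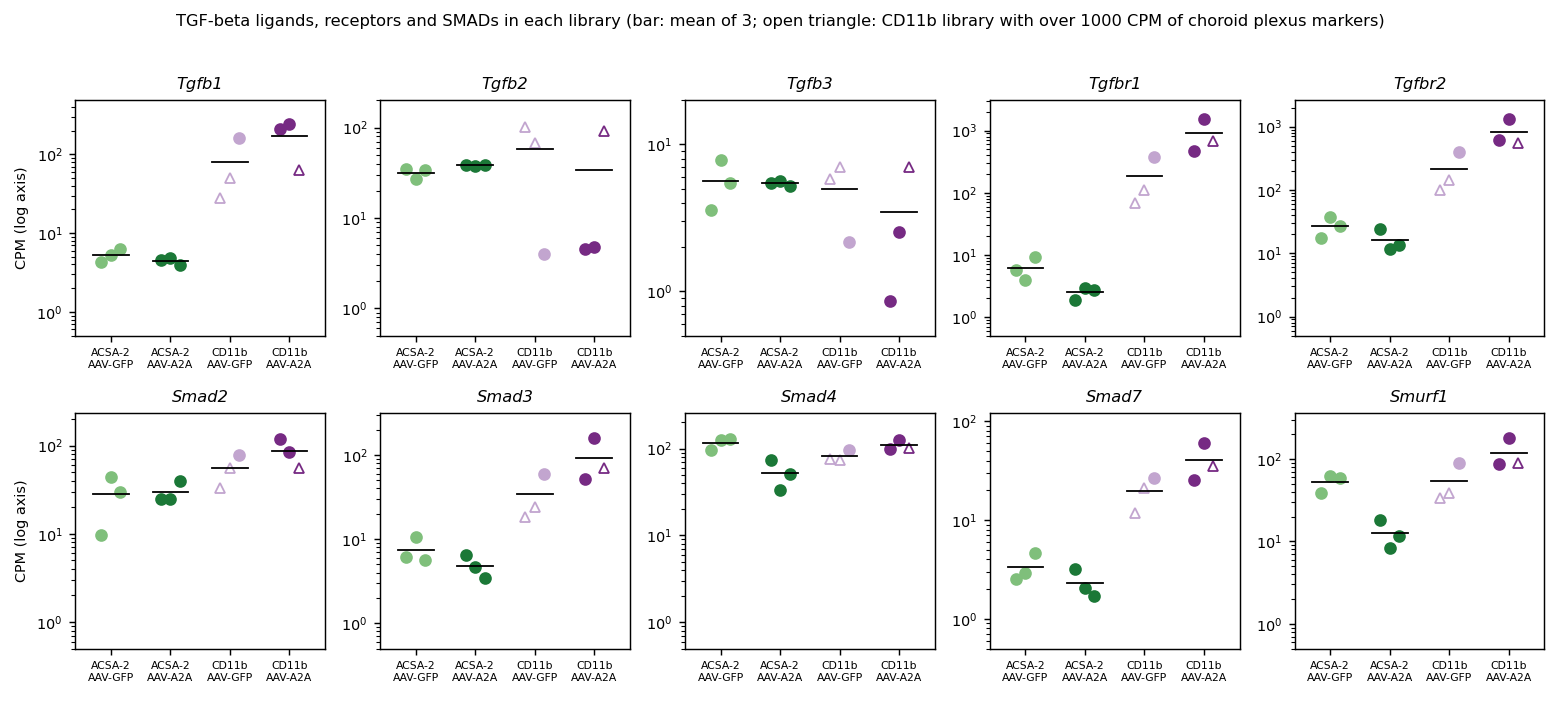
CPM (log axis) of the 10 members in each library, by fraction and vector, with a bar at the mean of 3 libraries and open triangles for the choroid plexus-rich CD11b libraries. Smurf1 and Smad4 were lower in all 3 AAV-A2A than in all 3 AAV-GFP libraries of the ACSA-2 fraction, and Tgfb2 in CD11b was at 67.9 CPM or more in the triangles and at 4.82 CPM or less in the filled points.

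In ACSA-2 controls the common SMAD was the most abundant member per length, at 31.5 ± 4.68 CPM per kb of exon (SD, n = 3), above every other member in each library. Smurf1 followed at 8.36 ± 2.05 CPM per kb and Tgfb2 at 5.49 ± 0.709 CPM per kb, and these were each above the next in all 3 libraries. Tgfbr2 and Smad2, at 3.35 and 3.20 CPM per kb, overlapped. Tgfb3, Smad3, Tgfb1, Tgfbr1 and Smad7 formed the low end, from 1.66 down to 0.743 CPM per kb, with neighbours that overlapped throughout. The order changed in AAV-A2A animals in that Smurf1 fell from the second to the fifth place (2.00 ± 0.814 CPM per kb), level with Tgfbr2.

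The comparison of AAV-A2A with AAV-GFP in the ACSA-2 fraction asked which members changed in astrocytes that overexpress A2AR. Calls needed an adjusted p under 0.05 with a log2 FC beyond 0.32 in either direction. Of the 10 members, 1 fell, 0 rose and 9 did not pass, where 3.36% of the 16451 genes tested were called and 3.19% were called lower. The member that fell was Smurf1. Its level was 38.1 CPM in GFP-303, 62.3 in GFP-306 and 58.4 in GFP-307, against 18.3 CPM in A2A-309, 8.23 in A2A-310 and 11.5 in A2A-313. The highest AAV-A2A library thus lay below the lowest control, and the mean went from 53.0 ± 13 to 12.7 ± 5.16 CPM (SD, n = 3, log2 FC = -2.04 ± 0.34 SE, edgeR adjusted p = 0.00999). The call was lost without GFP-306 (adjusted p = 0.0581), without A2A-313 (0.0617) and in the fit of all 12 libraries (0.0742), with a log2 FC between -1.90 and -2.06 in these. Smad7, the other inhibitor, was at 2.53 to 4.65 CPM in controls and 1.69 to 3.22 CPM in AAV-A2A, with overlapping groups (log2 FC = -0.51 ± 0.59 SE, adjusted p = 0.828).

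Smad4, the partner that receptor-activated SMADs need to act on most target genes, came next. It stood at 96.8, 125 and 129 CPM in the controls and at 74.3, 33.7 and 50.8 CPM in the AAV-A2A libraries. All AAV-A2A values were below all controls, yet the difference missed the threshold (log2 FC = -1.12 ± 0.28 SE, adjusted p = 0.0682). It passed with DESeq2 (adjusted p = 0.00484), with limma-voom (0.0407), with no filter on low counts (0.0279), with at least 10 counts in every library (0.0231) and without A2A-309 (0.0299). The type I receptor Tgfbr1 was at 5.77, 3.89 and 9.08 CPM in controls and 1.88, 2.93 and 2.74 CPM in AAV-A2A. These groups did not overlap either, at a low level (log2 FC = -1.28 ± 0.50 SE, adjusted p = 0.304). Tgfbr2, at 17.3 to 37.6 against 11.7 to 23.8 CPM, overlapped (log2 FC = -0.72 ± 0.37 SE, adjusted p = 0.477).

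The remaining members gave smaller differences in ACSA-2. Tgfb2 was at 34.4, 27.1 and 33.9 CPM in controls and at 38.6, 37.8 and 38.9 CPM in AAV-A2A, higher in each AAV-A2A library than in any control by a log2 FC of 0.30 ± 0.21 SE (adjusted p = 0.643). Smad3 was at 5.66 to 10.7 against 3.45 to 6.47 CPM and Smad2 at 9.70 to 44.5 against 24.8 to 39.3 CPM, with overlap. Tgfb1 (4.34 to 6.27 against 3.91 to 4.77 CPM) and Tgfb3 (3.57 to 7.88 against 5.21 to 5.65 CPM) overlapped as well. In all, 8 of 10 members had a negative log2 FC, as did 48.4% of all genes tested. The median over the members was -0.56 against 0.02 over all genes, with 3 members lower and 1 higher without overlap (11.5% and 7.85% of all genes). In the same fraction the summed markers of oligodendrocyte precursors were at 357 to 539 CPM in controls and 145 to 274 CPM in AAV-A2A, with 1 of 4 genes free of overlap. That gene was Cspg4, which led the list in controls, at 190 to 296 against 44.9 to 71.2 CPM, while Olig1, which led it in AAV-A2A, was at 163 to 240 against 87.0 to 225 CPM. Those of endothelial cells were at 369 to 444 against 203 to 355 CPM, with 3 of 6 genes lower without overlap. Flt1, which led that list in controls, was at 160 to 197 against 46.0 to 77.5 CPM, and Cldn5, which led it in AAV-A2A, at 157 to 187 against 136 to 247 CPM. The part of these cells in the values above was not tested. In sorted bulk samples fewer cells of a type and less RNA per cell cannot be told apart.

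**Figure D2:**
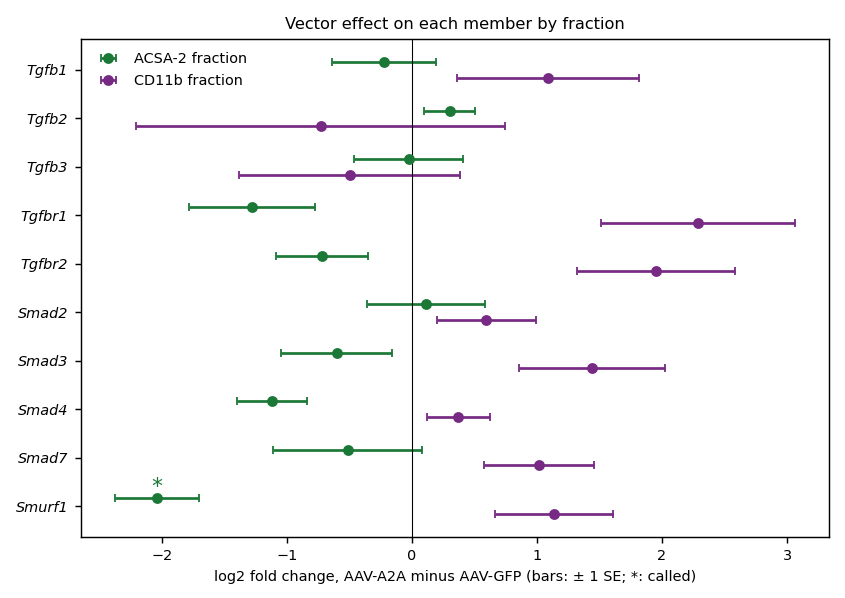
Log2 fold change of AAV-A2A against AAV-GFP (x axis) for each member, in the ACSA-2 fraction (green) and the CD11b fraction (purple), with bars of 1 SE from edgeR and an asterisk for a called gene. In ACSA-2 Smurf1 (-2.04) was the called member, and in CD11b Tgfbr1 (2.29) and Tgfbr2 (1.95) had the highest estimates, which did not pass.

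Beyond the members, 93 genes of the pathway in 9 lists were examined, of which 88 were tested in ACSA-2, and 5 fell, 1 rose and 82 did not pass, against 3.19% of all genes called lower and 0.176% called higher. Their median log2 FC was -0.19. Genes of latency and activation (9 tested, 2 fell) included Ltbp4, a binding protein that anchors latent TGF-beta in the matrix, at 150, 68.6 and 85.6 CPM in controls and 28.7, 26.1 and 21.0 CPM in AAV-A2A (log2 FC = -1.98 ± 0.30 SE, adjusted p = 0.00639). The other was Itgb8, the integrin subunit through which astrocytes activate latent TGF-beta, at 230, 188 and 228 CPM against 85.4, 49.0 and 73.0 CPM (log2 FC = -1.61 ± 0.22 SE, adjusted p = 0.00496). Both genes separated the groups completely. Itgav, the alpha chain that pairs with it and a gene outside the rule for naming, had a log2 FC of -0.50 ± 0.28 SE (adjusted p = 0.54).

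Among 13 other negative regulators 1 fell, Wwp1, an E3 ligase of the same HECT family as Smurf1. Its levels were 83.3, 62.8 and 61.5 CPM in controls and 28.1, 24.6 and 20.6 CPM in AAV-A2A (log2 FC = -1.47 ± 0.22 SE, adjusted p = 0.00618). The closest relatives of both ligases, chosen after their values were seen, did not pass. Smurf2 was at 22.8 to 26.4 against 8.69 to 14.0 CPM (log2 FC = -1.12 ± 0.27 SE, adjusted p = 0.0638), without overlap, while Wwp2 had a log2 FC of 0.09 ± 0.23 SE and Nedd4l of -0.28 ± 0.24 SE. Ski and Pmepa1, the most abundant negative regulators per length, had a log2 FC of -0.36 and 0.22 and did not pass.

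Nedd9, a scaffold protein gene known as a TGF-beta target, fell from 74.3 to 97.6 CPM in controls to 26.7 to 34.1 CPM in AAV-A2A (log2 FC = -1.51 ± 0.20 SE, adjusted p = 0.00387), the 1 called gene of 17 targets tested. Id3 and Junb, the most abundant targets per length, had a log2 FC of 0.64 and 0.36 (adjusted p = 0.167 and 0.573). Ncor1, a nuclear corepressor, was the 1 gene that rose, from 74.4 to 82.8 CPM in controls to 141 to 161 CPM (log2 FC = 0.95 ± 0.16 SE, adjusted p = 0.0114). Crebbp, a coactivator that SMADs recruit, was at 38.1 to 46.1 against 22.3 to 28.1 CPM, lower without overlap (log2 FC = -0.67 ± 0.21 SE, adjusted p = 0.171). Of 10 genes that microglia keep through TGF-beta, 1 was called in ACSA-2, Sall1, at 54.3 to 73.7 against 8.44 to 30.7 CPM (log2 FC = -1.74 ± 0.40 SE, adjusted p = 0.0493). With each library omitted in turn Sall1 was called in 1 fit of 6 and Ncor1 in 3, against 6 each for Ltbp4, Itgb8, Wwp1 and Nedd9. Tmem119, at 13.7 to 22.0 CPM in ACSA-2, did not differ beyond its spread (log2 FC = -0.05 ± 0.28 SE).
No gene was called among 10 co-receptors and receptor modulators, 4 ubiquitin regulators that favour the pathway, 4 genes of the TAK1 branch and 17 genes of the BMP and activin branch. Their most abundant genes included Fkbp1a, whose product guards the type I receptor (log2 FC = 0.16), the co-receptor Eng (-0.84, adjusted p = 0.114), Rnf111 (-1.42, adjusted p = 0.14), Usp4 (-0.19), Tab1 (-0.24), Tab2 (-0.66), Smad1 (0.03) and Bmp6 (-0.19).

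**Figure D3:**
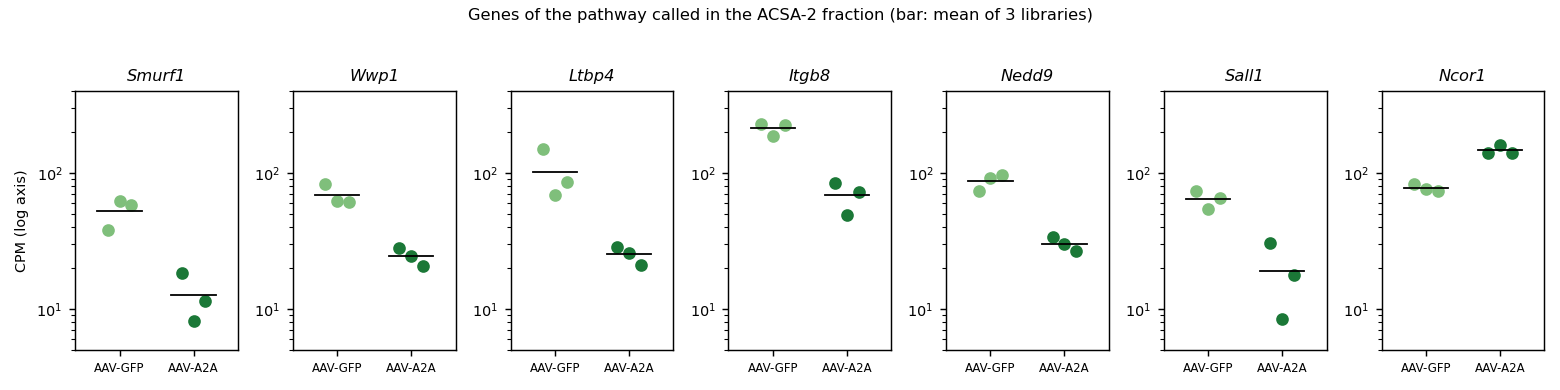
CPM (log axis) in the 6 ACSA-2 libraries for Smurf1 and for the other genes of the pathway lists called in this fraction, with bars at the mean of 3 libraries. The points of the vectors do not overlap in any of the 7 genes, and Ncor1 is the gene that is higher in AAV-A2A.

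Comparing the fractions in AAV-GFP controls asked how members are spread between astrocytes and microglia without A2AR overexpression. Fraction cannot be told apart here from any difference in animals or in the day or series of sorting and sequencing. Of the 10 members 5 were called higher in CD11b, 0 lower and 5 not, where 25.8% of 16980 genes were called and 13% were called higher.  Tgfbr1 was at 67.8, 112 and 374 CPM in GFP-2328, GFP-2329 and GFP-2331, against 3.89 to 9.08 CPM in ACSA-2 (log2 FC = 4.88 ± 0.77 SE, adjusted p = 0.00688). Tgfbr2 was at 100.5, 146 and 391 CPM against 17.3 to 37.6 CPM (log2 FC = 2.95 ± 0.59 SE, adjusted p = 0.0145). Every CD11b control was above every ACSA-2 control for both receptors, and GFP-2331, the control with the most microglia marker RNA, had the highest values.

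Tgfb1 was at 27.5, 50.8 and 160 CPM in CD11b controls against 4.34 to 6.27 CPM in ACSA-2 (log2 FC = 3.91 ± 0.69 SE, adjusted p = 0.00983). Smad7 was at 11.7, 21.1 and 26.4 CPM against 2.53 to 4.65 CPM (log2 FC = 2.55 ± 0.47 SE, adjusted p = 0.0105). Smad3 was at 18.3, 23.8 and 59.5 CPM against 5.66 to 10.7 CPM (log2 FC = 2.18 ± 0.55 SE, adjusted p = 0.0283). In these 3 genes, as in both receptors, the fractions did not overlap. With 1 of the 6 libraries omitted in turn, Tgfbr1 was called in 6, Tgfb1 and Smad7 in 5, Tgfbr2 in 4 and Smad3 in 2. The losses were without GFP-303 for Tgfb1 (adjusted p = 0.052), without GFP-306 for Smad7 (0.0518), without GFP-303 or GFP-307 for Tgfbr2 (0.064 and 0.0546), and without GFP-303, GFP-306, GFP-307 or GFP-2329 for Smad3 (0.0581 to 0.102).

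The other members did not differ between the fractions beyond their spread. Smad2 was at 32.8 to 78.8 CPM in CD11b controls (log2 FC = 0.99 ± 0.58 SE, adjusted p = 0.246), Smurf1 at 33.5 to 88.5 CPM (0.02 ± 0.43 SE, adjusted p = 0.98) and Smad4 at 74.8 to 97.5 CPM (-0.50 ± 0.24 SE, adjusted p = 0.167). Between the AAV-A2A libraries, where Smurf1 and Smad4 were lower in ACSA-2, their log2 FC was 3.18 (adjusted p = 0.00116) and 0.98 (0.0463). That fit called 46.6% of all genes. The estimate for Smad4 was negative in controls and positive there, but the one in controls was not called. The difference of its vector effect between the fractions did not pass either (edgeR adjusted p = 0.0902). Per kb, Tgfbr1, Tgfbr2 and Smad4 headed the CD11b controls at 28.2, 25.9 and 22.3 CPM per kb and could not be ranked, since their libraries overlapped.

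The ligands divided the CD11b libraries by choroid plexus content, and they were not alone in this. Smad2 was at 32.8, 55.7 and 55.3 CPM in the rich and at 78.8, 117 and 85.5 CPM in the poor libraries. The receptors, Smad3, Smad4, Smad7 and Smurf1 overlapped between the classes. The classes come from these same data, and the share of all genes that divide in this way was not computed. Tgfb2 was at 101 and 67.9 CPM in GFP-2328 and GFP-2329 and at 91.5 CPM in A2A-2347, but at 4.05, 4.56 and 4.82 CPM in GFP-2331, A2A-2343 and A2A-2344. The choroid plexus-rich libraries of both vectors were therefore all above the ACSA-2 range of 27.1 to 38.9 CPM, and the choroid plexus-poor ones all below it. Against ACSA-2 controls, Tgfb2 had a log2 FC of 1.41 with the rich controls GFP-2328 and GFP-2329 (without GFP-2331, adjusted p = 0.00572) and of -2.94 with the poor control GFP-2331, a single library for which no test is given, while all 3 controls gave 0.86 ± 0.91 SE (adjusted p = 0.518). Tgfb3 showed the same division at a low level, with 5.79, 6.96 and 6.99 CPM in the rich and 2.17, 0.855 and 2.54 CPM in the poor libraries. Tgfb2 and Tgfb3 each share exonic bases with genes on the opposite strand (2.14% of the exonic length of Tgfb2, up to 7.60% of that of Tgfb3), and the counting is not stated to use strand. Itgb8 followed this division too, at 80.7, 53.9 and 76.5 CPM in the rich and 2.22, 2.00 and 1.12 CPM in the poor libraries, as did Bmp6, a bone morphogenetic protein, at 161, 96.5 and 191 against 9.55, 4.31 and 13 CPM.

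Tgfb1 went the other way, at 27.5, 50.8 and 64.1 CPM in the rich and 160, 210 and 245 CPM in the poor libraries. Divided by the summed microglia markers of the same library, it was at 3.25 to 5.27 CPM per 1000 CPM of markers in all 6, a much narrower range. Per exonic length, Tgfb1 made up 96.0 to 97.6% of ligand RNA in the poor libraries and 22.2 to 42.2% in the rich ones, where Tgfb2 made up 49.2 to 70.8%. In ACSA-2 libraries Tgfb2 was the main ligand throughout, with 58.1 to 75.6%, and Tgfb1 made up 8.59 to 14.3%.

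**Figure D4:**
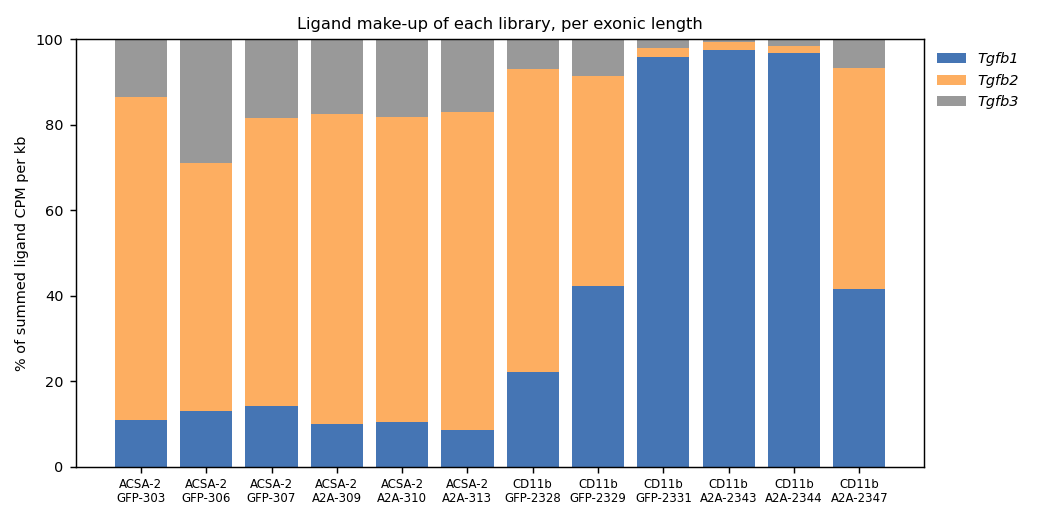
Share of each ligand in the summed ligand CPM per kb of exon (y axis, percent), as stacked bars for the 12 libraries. Tgfb2 makes up 58.1 to 75.6% in the ACSA-2 libraries, Tgfb1 makes up 96.0 to 97.6% in GFP-2331, A2A-2343 and A2A-2344, and the other 3 CD11b libraries are mixed.

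The wider pathway also differed between the fractions in controls, with 27 of 89 genes tested higher in CD11b, 9 lower and 53 not called, against 13% of all genes called higher and 12.7% lower. Of 10 genes that microglia keep through TGF-beta 9 were called higher, among them Tmem119 (log2 FC = 7.57 ± 0.98 SE), which also serves as a marker of the fraction, and Sall1 did not pass (1.95 ± 0.68 SE, adjusted p = 0.0772). Of 13 other negative regulators 5 were higher, led by Skil (log2 FC = 5.35 ± 0.57 SE), and including Pmepa1 (3.10 ± 0.55 SE, called in 4 of 6 fits with a library omitted), both known as targets of the pathway they restrain. Nrros, which holds latent TGF-beta1 on the microglial surface, was at 91.7 to 494 CPM in CD11b controls against 13.7 to 28.2 CPM in ACSA-2 (log2 FC = 3.60 ± 0.67 SE, adjusted p = 0.0116, called in 5 of those 6 fits). Ltbp1, a matrix anchor of the latent complex, was lower in CD11b, at 0.392 to 1.62 against 11.5 to 17.2 CPM (log2 FC = -3.75 ± 0.62 SE, adjusted p = 0.00788). The BMP and activin branch had 0 of 17 genes higher and 5 lower, with Inhbb (log2 FC = -5.58 ± 0.52 SE) at the low end. Skil, Ltbp1 and Inhbb were singled out after their values were seen. Of 18 target genes 4 were higher, including Junb (5.01 ± 0.40 SE), and 2 lower.

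The comparison of AAV-A2A with AAV-GFP in CD11b asked what changed in microglia beside astrocytes that overexpress A2AR. By edgeR 0 of 10 members passed, and 0.0% of the 16949 genes tested were called, with 2704 genes (16%) at an unadjusted p under 0.05. DESeq2 called 502 genes and limma-voom 0, and neither called a member. At an unadjusted p under 0.05 stood 4 members, all with a positive log2 FC (9.68% of all genes), namely Tgfbr1, Tgfbr2, Smad3 and Smurf1. Without overlap between the vectors and higher in AAV-A2A were Tgfbr1, Tgfbr2 and Smad4, against 11.9% of all genes. A positive log2 FC was found in 8 members and in 47.9% of all genes, and the median was 1.05 over the members and -0.05 over all genes.

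Tgfbr1 was at 67.8, 112 and 374 CPM in GFP-2328, GFP-2329 and GFP-2331, and at 471, 1555 and 688 CPM in A2A-2343, A2A-2344 and A2A-2347. The lowest AAV-A2A library was above the highest control, and the mean went from 185 ± 165 to 905 ± 574 CPM (SD, n = 3, log2 FC = 2.29 ± 0.78 SE, adjusted p = 0.282). Tgfbr2 was at 100.5, 146 and 391 CPM in controls and 625, 1317 and 555 CPM in AAV-A2A (log2 FC = 1.95 ± 0.63 SE, adjusted p = 0.28). For both receptors GFP-2328 was the lowest library and A2A-2344 the highest. Smad4, at 75.7, 74.8 and 97.5 against 99.6, 124 and 102.01 CPM, was higher by a smaller amount (log2 FC = 0.37 ± 0.25 SE, adjusted p = 0.494).

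Within CD11b, Smad3 was at 18.3 to 59.5 CPM in controls and 51.8, 158 and 69.5 CPM in AAV-A2A (log2 FC = 1.44 ± 0.58 SE, adjusted p = 0.305). Smurf1, which fell in ACSA-2, was at 33.5, 38.8 and 88.5 CPM in CD11b controls and 88.0, 181 and 89.1 CPM in AAV-A2A (log2 FC = 1.14 ± 0.47 SE, adjusted p = 0.31). Smad7 was at 11.7 to 26.4 against 25.4 to 60.6 CPM and Smad2 at 32.8 to 78.8 against 55.3 to 117 CPM, with overlap. For each of these genes the highest control was GFP-2331, the choroid plexus-poor one, and it reached into the AAV-A2A range. The ligands overlapped (Tgfb1 1.09 ± 0.73 SE, Tgfb2 -0.73 ± 1.48 SE, Tgfb3 -0.50 ± 0.88 SE).

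The choroid plexus-rich libraries are 2 of the controls and 1 of the AAV-A2A libraries. Between these 3 alone, where the single AAV-A2A library is assumed to vary like the controls, 4 members were called higher, Tgfbr1 (log2 FC 3.01, adjusted p = 0.00467), Tgfbr2 (2.25, 0.0093), Smad3 (1.80, 0.00899) and Smurf1 (1.38, 0.0207). In that fit 2224 of all 19551 genes were called (11.4% of genes, with 8.44% of genes called higher). Between the poor libraries, 1 control and 2 AAV-A2A, the same genes had a log2 FC of 1.42, 1.29, 0.80 and 0.59. Calls are not compared between the rich and the poor libraries, since in each class a vector has a single library. With the choroid plexus class as a term in the fit of all 6 libraries the values were 2.21, 1.76, 1.29 and 0.97, with edgeR adjusted p from 0.138 to 0.172. In that fit 0.0% of all 16949 genes were called. These fits were added after the data were seen. Per 1000 CPM of summed microglia markers, Tgfbr1 was at 10.2, 8.22 and 7.56 CPM in GFP-2328, GFP-2329 and GFP-2331 and at 8.55, 33.4 and 35.6 CPM in A2A-2343, A2A-2344 and A2A-2347. On this scale A2A-2343 lay among the controls, and 0 of 10 members separated the vectors.

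Other cells also moved with the vector in CD11b. Erythrocyte markers summed to 1016 to 5985 CPM in controls and 56.7 to 253 CPM in AAV-A2A, with 4 of 5 genes lower without overlap and Hbb-bs at 539 to 3433 against 28.9 to 112 CPM. Neuron markers summed to 28.0 to 209 against 5.31 to 15.9 CPM, with 3 of 8 genes lower without overlap. Camk2a, the most abundant of them in controls by mean, overlapped, at 5.45 to 105 against 1.02 to 7.54 CPM. Ependymal markers summed to 129 to 261 against 31.4 to 60.8 CPM (3 of 4 genes lower without overlap, Ccdc153 40.3 to 98.5 against 8.11 to 24.2). Those of endothelial cells summed to 466 to 1135 against 266 to 387 CPM (2 of 6 genes, Cldn5 219 to 575 against 78.3 to 124). Microglia markers summed to 6629 to 49408 against 19325 to 55086 CPM, with overlap, but 2 of 8 genes were higher in AAV-A2A without overlap, among them Csf1r, the most abundant over the 6 libraries, at 1326 to 8058 against 8195 to 19834 CPM. Of all genes, 11.9% were higher in CD11b without overlap, and the share lower is not given here. What these cells contributed to the values of the members was not tested.

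**Figure D5:**
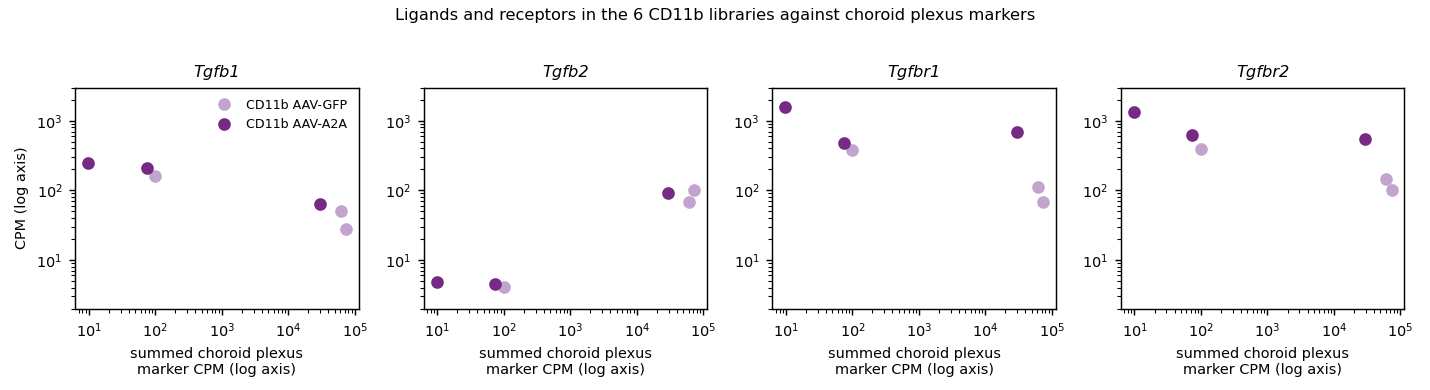
CPM of Tgfb1, Tgfb2, Tgfbr1 and Tgfbr2 (y axis, log) against the summed CPM of 7 choroid plexus markers (x axis, log) in the 6 CD11b libraries, light for AAV-GFP and dark for AAV-A2A. Tgfb2 stands at 67.9 to 101 CPM in the 3 libraries on the right and at 4.05 to 4.82 CPM on the left, while Tgfbr1 in A2A-2347 (688 CPM) lies above both controls beside it (67.8 and 112 CPM).

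Of 90 other pathway genes tested in CD11b 0 were called by edgeR, with 15 higher and 5 lower at an unadjusted p under 0.05. Of all genes, 16% reached this p in either direction and 9.68% with a higher level. The median log2 FC of the 90 genes was 0.59, against -0.05 over all genes. All 10 genes that microglia keep through TGF-beta had a positive log2 FC, up to 1.26 (Sall1), as did 47.9% of all genes, and 0 of the 10 separated the vectors. Nrros had a log2 FC of 0.80 ± 0.65 SE, Ski of 1.68 ± 0.83 SE, Eng of 0.93 ± 0.37 SE, Rnf111 of 0.81 ± 0.31 SE and Usp4 of 0.88 ± 0.33 SE. Of these, Eng, Rnf111 and Usp4 were higher in each AAV-A2A library than in any control. In all, 18 of the 90 pathway genes were higher in this way, against 11.9% of all genes. Another 6 were lower without overlap, for which the share of all genes is not given here. The target Id3 was at 742, 534 and 111 CPM in controls and 54.9, 38.6 and 156 CPM in AAV-A2A, a log2 FC of -2.47 ± 0.89 SE (adjusted p = 0.288), with its 3 highest values in the choroid plexus-rich libraries.

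Whether the vector effect differed between the fractions was tested directly, as the effect in CD11b minus that in ACSA-2 over all 12 libraries taken as independent. Here too, fraction cannot be told apart from any difference in animals or in the series of sorting and sequencing. By edgeR 0 of 10 members passed, where 75 of 18602 genes were called (0.403%), and 6 members had an unadjusted p under 0.05, all with a positive difference (19.6% of all genes in either direction, 11.3% higher). DESeq2 called 4 members, Tgfbr1, Tgfbr2, Smad4 and Smurf1, and limma-voom 1, Smurf1. DESeq2 called 1740 of 25183 genes for this difference (6.91%), and limma-voom 89 of 18602 (0.478%). The largest differences in log2 FC were those of Tgfbr1 (3.60 ± 0.90 SE, adjusted p = 0.0785), Smurf1 (3.22 ± 0.65 SE, adjusted p = 0.0566) and Tgfbr2 (2.71 ± 0.77 SE, adjusted p = 0.107). Smad3 (2.08 ± 0.75 SE), Smad7 (1.57 ± 0.63 SE) and Smad4 (1.54 ± 0.41 SE, adjusted p = 0.0902) followed. For Tgfb1 (1.37 ± 0.84 SE), Smad2 (0.54 ± 0.72 SE), Tgfb3 (-0.47 ± 0.99 SE) and Tgfb2 (-1.05 ± 1.55 SE) the difference was within 2 SE. Opposite directions in the fractions, with no overlap in either, were seen in Tgfbr1 and Smad4 among the members and in 2.85% of all genes. The count of members rested on single libraries, since it rose to 5 without GFP-2331 and to 2 without A2A-2343, where 1286 (6.61%) and 830 (4.25%) of all genes were called.

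The pattern of Smurf1 over the 12 libraries was most like that of Armc5, Zdhhc5 and Spata2 (Pearson r of log2(CPM + 1) = 0.989, 0.968 and 0.965). Their mean levels were 77.0, 103 and 40.3 CPM in ACSA-2 controls and 29.4, 27.3 and 13.8 CPM in ACSA-2 AAV-A2A libraries, and in CD11b they went from 84.6, 101.7 and 30.7 to 156, 168 and 62.3 CPM. Among the members the nearest to Smurf1 was Smad4 (r = 0.879), followed by Tgfbr2 and Smad3 (both 0.835), while Tgfb2 (-0.519) and Tgfb3 (-0.431) ran against it. These values describe 12 libraries that fall into 4 groups and share composition and depth.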

How the data were processed

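The count tables were deposited by the authors as raw counts of reads per Ensembl gene, without normalization, 1 table per fraction. The submitters' processing notes name bcl2fastq, cutadapt 1.10, STAR 2.5.3 and HTSeq 0.6.1p1 with mm10. Full-length cDNA was amplified from little RNA and no molecular identifiers were used, so reads are not independent molecules. Strand use in counting is not given in the sources used here. Replicates carry separate label numbers, and where these are not separate mice the p-values measure only the spread between libraries. 25 empty unnamed columns were not used. Exonic lengths and symbols are from GENCODE M21 (GRCm38), which held 27813 of 27866 and 30289 of 30359 identifiers. Promoters are from RefSeq, and windows were taken for 6 of 10 members. Members on chromosome 18 (Smad2, Smad4 and Smad7) were left out before matching, so this is not a rate of matching.

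The fits used edgeR 4.0.16 (TMM, filterByExpr, robust quasi-likelihood test, Benjamini-Hochberg adjustment over all genes tested) in R 4.3.3, within each fraction, between fractions in controls, and over 12 libraries for the difference. Alternatives were DESeq2 1.42.0, limma-voom (limma 3.58.1), other scaling, filters of none or 10 counts in every library, a length and GC offset, other sets of libraries and each library left out. The fits were run on simulated counts, drawn for each gene independently. These held no choroid plexus classes or other shifts in composition between libraries, so they do not stand for the CD11b libraries in this respect. Figures used matplotlib 3.10.9 in Python 3.11.15. No pair of replicates had counts within sampling noise (chi-square per degree of freedom 51.6 or more).

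The members and lists were chosen with earlier results of these data known. Named were all members, pathway genes called in a vector effect, the 2 most abundant genes of each list per length, the 3 genes most like a called member and the top gene of each marker list that moved with the vector. Genes named beyond this were chosen after their values were seen. A gene that the rule names is not reported here.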

Additional observations from a re-analysis of the deposited data

Results flagged for a closer look

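Tgfbr1, Smad4 and Ncor1 were flagged because every AAV-A2A library moved one way against every control in ACSA-2 and the opposite way in CD11b. Of all genes tested, 2.85% showed such a pattern. The difference of the vector effect, CD11b minus ACSA-2, was 3.60 in log2 for Tgfbr1 (edgeR adjusted p = 0.0785), 1.54 for Smad4 (adjusted p = 0.0902) and -1.33 for Ncor1 (adjusted p = 0.0625), and in none of the 3 did it pass the threshold by edgeR.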

How the results depend on the processing

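No paired analysis was possible because no label number is shared between groups. Of the members, 1 was called for the vector effect in ACSA-2, which became 2 with DESeq2, limma-voom, no filter on low counts or at least 10 counts in every library, 0 in the fit of all 12 libraries, and 0 to 2 with each library left out in turn. Of all genes, 3.36% were called in the main fit, 4.62% with DESeq2, 3.6% with limma-voom, 2.38% with no filter and 5.52% with at least 10 counts. The fit of all 12 libraries called 0.839% of all genes, and those with a library left out 1.57 to 2.6%. For the vector effect in CD11b 0 were called, where 0.0% of all genes were called. For the fractions in controls 5 were called (25.8% of all genes), and 8 between the AAV-A2A libraries (46.6%). With each library left out 2 to 7 were called. These were 2 without GFP-303 (11.4% of all genes), 3 without GFP-306 (10.7%) or GFP-307 (12.2%), and 7 without GFP-2331 (32.4%). For the difference between fractions 0 were called (0.403% of all genes), against 4 with DESeq2 (6.91%) and 1 with limma-voom (0.478%). There were 2 with at least 10 counts in every library (2.86%), and 0 to 5 with each library left out (0.0 to 6.61%). The counts over all genes were 553 (156 to 1277 over the alternatives) in ACSA-2, 0 (0 to 2224) in CD11b, 4377 (1927 to 10055) between fractions and 75 (0 to 1740) for the difference.

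The sign turned for members that were not called. In ACSA-2, Tgfb3 had a log2 FC of 0.076 under upper-quartile scaling, 0.074 with limma-voom and 0.056 with the length and GC trend removed, and -0.29 to 0.30 with each library left out, and Smad2 had -0.31 to 0.62. In CD11b, Tgfb2 had 0.19 in the choroid plexus-poor libraries, 0.19 in the rich ones and 0.18 with the class as a term, and Tgfb3 0.21 in the rich ones. Between fractions, Tgfb2 had -0.25 in the AAV-A2A libraries and -2.94 in the poor control, and Smad4 0.27 over both vectors and 0.98 in the AAV-A2A libraries. Smurf1 had -0.048 under upper-quartile scaling, -0.10 with limma-voom and -0.21 with the length and GC trend removed, and -0.55 to 0.27 with each library left out, and Tgfb3 had -0.49 to 0.18. For the difference, Tgfb3 had 0.20 with the rich libraries. Upper-quartile scaling moved the median log2 FC of all genes from 0.02 to 0.12 in ACSA-2, from -0.05 to -0.21 in CD11b and from -0.10 to -0.40 for the difference. The cause of these changes was not tested. All 6 pathway genes called in ACSA-2 lost their call in the fit of all 12 libraries. With 3 libraries a group, CD11b libraries of unlike composition and counts without molecular identifiers, an absent call does not show equal levels.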
